A study of Mus musculus with 3 samples.

Results

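The guanylate-binding proteins (GBPs) are a family of large interferon-inducible GTPases, and 10 of the 23361 genes in the files of mouse liver mRNA carry the symbols Gbp2 to Gbp11. They were chosen by gene symbol, with earlier results of these data known, so their levels are given as a description. The 3 libraries came from C57BL/6J mice that the labels give as male and 8 to 10 weeks old. The sham sample had a laparotomy without vascular occlusion, the warm ischemia (WI) sample had 90 min of occlusion of the vessels to the left and median lobes, and the ischemia followed by reperfusion (IR) sample had 90 min of occlusion and 120 min of reperfusion. All mice were fasted and anesthetized with chloral hydrate, and the sham livers were taken at the time point of the WI livers, so no sham sample matched the IR sample in time. Each condition had 1 library, and whether its RNA came from a single mouse or from several is not given in the sources used here, so no difference between samples has a replicate check or a p-value.

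GBPs are made in response to interferon-gamma and, for some members, type I interferon. Interferon-gamma binds the receptor chains IFNGR1 and IFNGR2, the kinases JAK1 and JAK2 pass the signal on, and the transcription factor IRF1 takes part in switching on the GBP genes in macrophages, endothelial cells and hepatocytes. The proteins bind GTP, assemble on the membranes around intracellular bacteria and parasites, and help to activate inflammasomes, the protein complexes that process interleukin-1β.

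The libraries were first checked against their labels. Xist, the RNA made from an inactive X chromosome, had an FPKM (fragments per kilobase of transcript, scaled to the number of mapped fragments) of 18.9 in sham liver, 20.1 in WI liver and 1.29 in IR liver. Of 4 Y-linked genes, all were listed at 0 in sham liver, Ddx3y alone was above 0 in WI liver at 0.00849, and in IR liver the 4 ranged from 0.669 (Kdm5d) to 13.2 (Eif2s3y). The libraries labelled sham and WI therefore went against their male label, while the library labelled IR matched it. The comparison of WI with sham was between libraries alike in these genes. In every comparison with the IR sample a difference in sex cannot be told apart from reperfusion or from the added time after surgery. Hepatocyte mRNAs were abundant in all 3, with Ttr at an FPKM of 4241 to 5765, and Alb was listed at 0 in each with the status HIDATA, which marks a locus with too many fragments to process.

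The members lie in 2 clusters of the mm10 genome. On chromosome 3, between 142496934 and 142638008, the order is Gbp5, Gbp7, Gbp3, Gbp1 and Gbp2. Gbp1 in the files is the gene that RefSeq calls Gbp2b, and it is described beside the 10 members without being counted among them. On chromosome 5, between 105014153 and 105346472, the order is Gbp8, Gbp9, Gbp4, Gbp10, Gbp6 and Gbp11. The RefSeq table of start-site windows (GRCm38.p6, the build of the files, 250 bases before to 50 after a start site) holds 6 windows for 5 of these genes, all on chromosome 3. The windows were searched on both strands for the interferon-stimulated response element (ISRE), written as GAAA and GAAA with 2 bases between them, and for the gamma-activated site (GAS), written as TTCNNNGAA, words through which genes are known to respond to interferons. The matches are printed with up to 10 bases on either side, on the plus strand, because words of this kind are known from interferon-responsive genes in general, and capitals mark the match. ISRE matches were on the minus strand, so they read TTTC and TTTC here.
Gbp2 ISRE, chr3:142620594-142620623: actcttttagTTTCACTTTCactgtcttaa
Gbp1 ISRE, chr3:142594700-142594729: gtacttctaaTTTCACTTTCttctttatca
Gbp3 ISRE, chr3:142559989-142560018: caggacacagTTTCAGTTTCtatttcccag
Gbp7 ISRE, chr3:142530273-142530302: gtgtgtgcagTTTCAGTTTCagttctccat
Gbp7 GAS, chr3:142530220-142530248: tccgttttctTTCCAGGAAaagcagaagc
Gbp7 GAS, chr3:142530239-142530267: aagcagaagcTTCTCAGAAagtcagcaca
Gbp5 ISRE, chr3:142496759-142496788: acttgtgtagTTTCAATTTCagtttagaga
Gbp5 GAS, chr3:142496684-142496707: gcaacTTCTGGGAAattagttcag
Gbp5 GAS, chr3:142496872-142496900: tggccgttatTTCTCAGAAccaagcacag

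The ISRE word was found in 5 of the 6 windows, 1 for each of the 5 genes, whereas 3.44% of all 32851 windows held it. The window without it belonged to a second start site of Gbp3. In the other window of Gbp3 a second ISRE match overlapped the one printed above. The GAS word was found in 2 of the 6 windows, against 8.30% of all windows, and those were the windows of Gbp5 and Gbp7. Both words occurred together in these 2 windows and in 0.454% of all windows. Gbp7 carried its 3 matches within the stretch from 106 to 44 bases before the start site, while those of Gbp5 were spread from 245 to 44 bases before it. A match of letters is a description and not a bound site, and these mRNA profiles hold no measurement of binding.

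**Figure D1:**
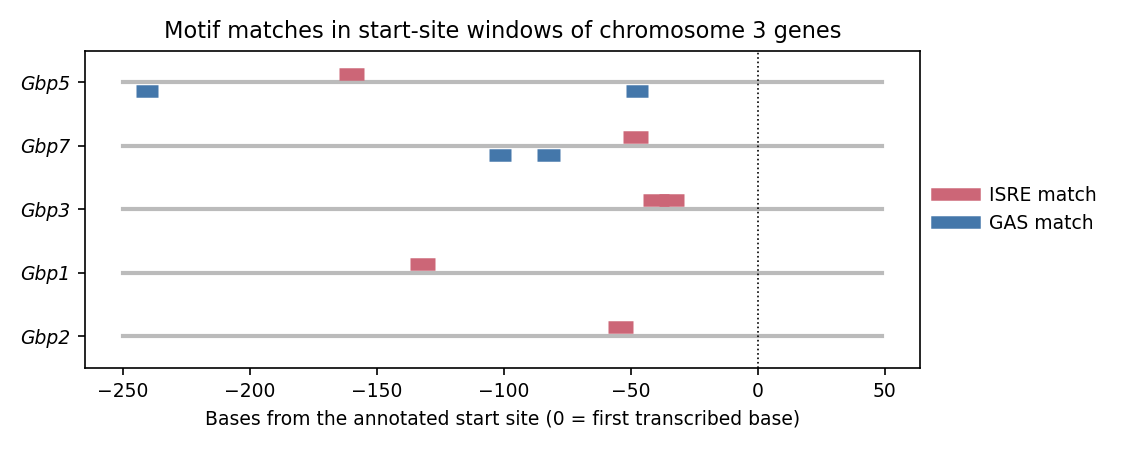
Positions of ISRE (red) and GAS (blue) word matches in start-site windows of the 5 family genes on chromosome 3, in bases from the annotated start site, with 1 window per gene (the second window of Gbp3 held no match). Each gene has an ISRE match upstream of the start site, and Gbp5 and Gbp7 also have 2 GAS matches each.

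Members of this family resemble each other closely enough for reads to be divided among them. In GENCODE vM1 transcripts, matched by symbol, the coding sequences of Gbp6 and Gbp10 were identical at 98.4% of aligned bases. Of the 50-base words in the Gbp6 transcript, 76.2% also occurred in Gbp10, and 77.4% of those of Gbp10 occurred in Gbp6. The levels of Gbp6 and Gbp10 are therefore uncertain as single genes, and their sum is given below. The other chromosome 5 members shared between 9.07% (Gbp9) and 34.5% (Gbp11) of their words with some other family gene. On chromosome 3 this share was lower, from 0% for Gbp5 to 4.79% for Gbp3, so these members could be told apart along nearly their whole length.

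**Figure D2:**
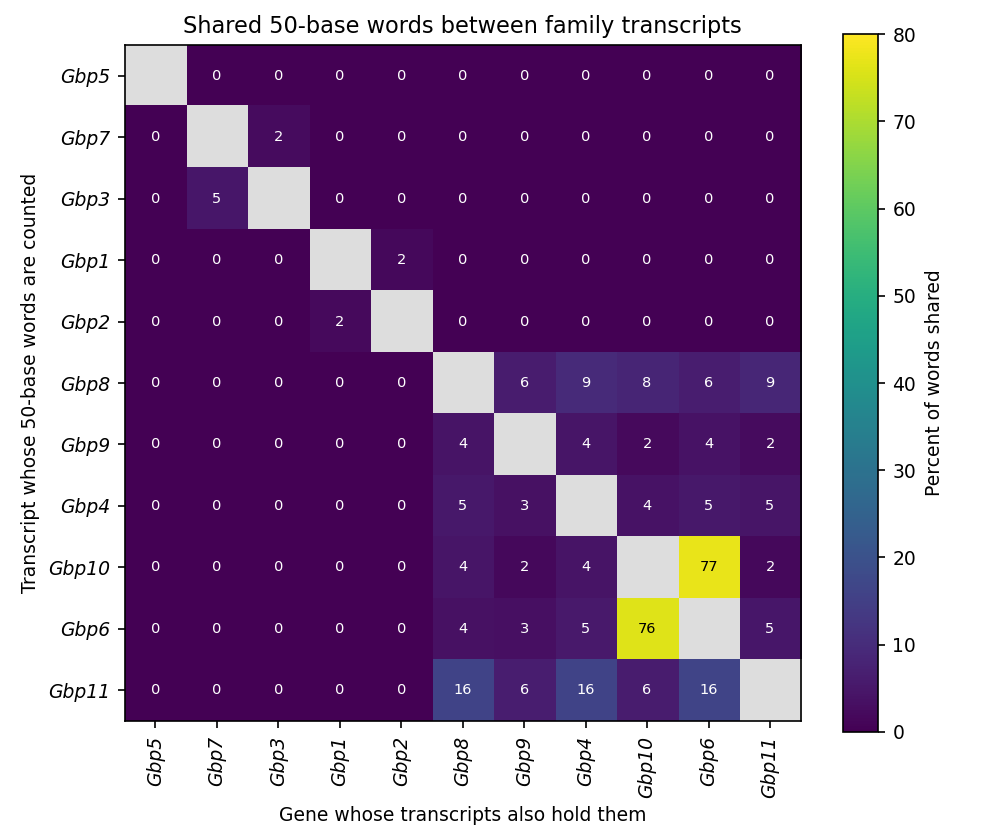
Percent of the 50-base words of each family transcript (rows) that also occur in transcripts of another family gene (columns), rounded to whole percents, with genes in genome order. Gbp6 and Gbp10 share 76.2% and 77.4% of their words with each other, and the chromosome 3 genes share under 5% with any other.

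In the WI sample the family was more abundant than in sham liver, led by Gbp10, Gbp6 and Gbp7. The summed FPKM of the 10 members was 39.2 in sham liver, 81.5 in WI liver and 45.9 in IR liver. All 10 members passed the filter, which asked for 1 FPKM or more in any of the samples. On the scale of log2(FPKM + 1), on which the differences of genes with low FPKM are understated, 3 of the 10 were at least 2-fold higher in WI than in sham and 0 were lower. Among all 10792 genes that passed the filter, 0.751% were at least 2-fold higher in this comparison, 1.1% lower and 1.85% either. The median difference of the members was 0.58 (log2), beside 0.02 over all genes, and 9 of the 10 were higher in WI liver by any amount. The files give 95% bounds for each FPKM, which come from the model of Cuffdiff and not from the spread between mice. By these bounds 1 of the 10 members, Gbp10, was apart and higher in WI liver, while 0.195% of all genes were apart and higher, 0.482% apart and lower and 0.676% either.

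Gbp10 had the widest range of the 10 members on the log2(FPKM + 1) scale. Its FPKM was 3.68 in sham liver (95% bounds 1.86 to 5.50), 17.4 in WI liver (9.27 to 25.4) and 4.71 in IR liver (2.43 to 6.99). The WI sample stood above both others without overlap of the bounds, and the sham and IR samples overlapped. The difference was 1.97 on the log2 scale from sham to WI and -1.69 from WI to IR. The nearest bounds of the WI and sham samples were 1.68-fold apart, and those of the WI and IR samples 1.33-fold.

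Gbp6, its near copy, had an FPKM of 4.81 in sham liver (95% bounds 2.54 to 7.09), 13.2 in WI liver (7.07 to 19.3) and 6.96 in IR liver (3.72 to 10.2). The order of the samples was that of Gbp10, but the bounds of WI overlapped those of both others, narrowly so for sham. The difference was 1.29 (log2) from sham to WI and -0.84 from WI to IR. Summed over Gbp6 and Gbp10, the FPKM was 8.49 in sham liver, 30.6 in WI liver and 11.7 in IR liver. The pair held 21.6% of the summed FPKM of the family in sham liver, 37.5% in WI liver and 25.4% in IR liver. The remaining 4 members on chromosome 5 summed to 7.67, 11.4 and 8.39 in the same order, a ratio of WI to sham of 1.48 beside 3.60 for the pair.

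Gbp7, which is known to help assemble the NADPH oxidase on phagosomes, gave the same shape from chromosome 3. It shared 2.31% of its 50-base words with another family gene. Its FPKM was 3.93 in sham liver (95% bounds 2.08 to 5.78), 10.8 in WI liver (5.76 to 15.8) and 4.69 in IR liver (2.50 to 6.88). The bounds of sham and WI met almost at their ends, and those of WI and IR overlapped. The difference was 1.26 (log2) from sham to WI and -1.05 from WI to IR. It was the member just past the 2-fold threshold in both comparisons.

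Gbp2 and Gbp3 were the most abundant members in sham liver. Gbp2, which coats vacuoles that hold parasites or bacteria and carries a lipid anchor at its end, had an FPKM of 7.88 in sham liver (95% bounds 4.14 to 11.6), 12.3 in WI liver (6.56 to 17.9) and 10.5 in IR liver (5.61 to 15.4). Gbp3, another protein of these vacuoles, had an FPKM of 9.58 in sham liver (5.11 to 14.0), 14.8 in WI liver (7.98 to 21.7) and 7.12 in IR liver (3.72 to 10.5). Both were highest in WI liver, with bounds that overlapped in every pair of samples. From sham to WI each differed by 0.58 (log2). From WI to IR they parted, at -0.20 for Gbp2 and -0.96 for Gbp3, which lay just outside the threshold.

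In the deposited FPKM, Gbp5 and Gbp11 were the members with their highest level in IR liver, Gbp11 by a small margin over WI. Gbp5, which promotes the assembly of the NLRP3 inflammasome, had an FPKM of 1.67 in sham liver (95% bounds 0.704 to 2.63), 1.73 in WI liver (0.731 to 2.73) and 3.55 in IR liver (1.73 to 5.37). Its sham and WI levels were nearly equal, and the IR level was 2.05-fold that of the WI sample on the FPKM scale, with overlapping bounds. Gbp11 had an FPKM of 1.89 in sham liver (0.809 to 2.96), 4.38 in WI liver (2.18 to 6.59) and 4.60 in IR liver (2.30 to 6.90). It was higher than sham in both injured samples, by 0.90 (log2) in WI, just outside the threshold, and by 0.96 in IR, and the bounds overlapped in every pair. With the samples scaled to equal totals of FPKM, the difference from WI to IR was 0.34 (log2) for Gbp5 and -0.39 for Gbp11. Gbp11 was then highest in WI liver.

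Gbp4, Gbp8 and Gbp9 stayed at low levels. Gbp4, reported to restrain the interferon regulator IRF7, had an FPKM of 1.82, 2.40 and 1.25 in sham, WI and IR liver. Gbp9 had 2.01, 2.67 and 1.79. Gbp8 had 1.96 and 1.92 in the sham and WI samples and 0.755 in IR liver, the lowest value of any member. None of the 3 had bounds apart in any comparison, and none passed the 2-fold threshold on the log2(FPKM + 1) scale.

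**Figure D3:**
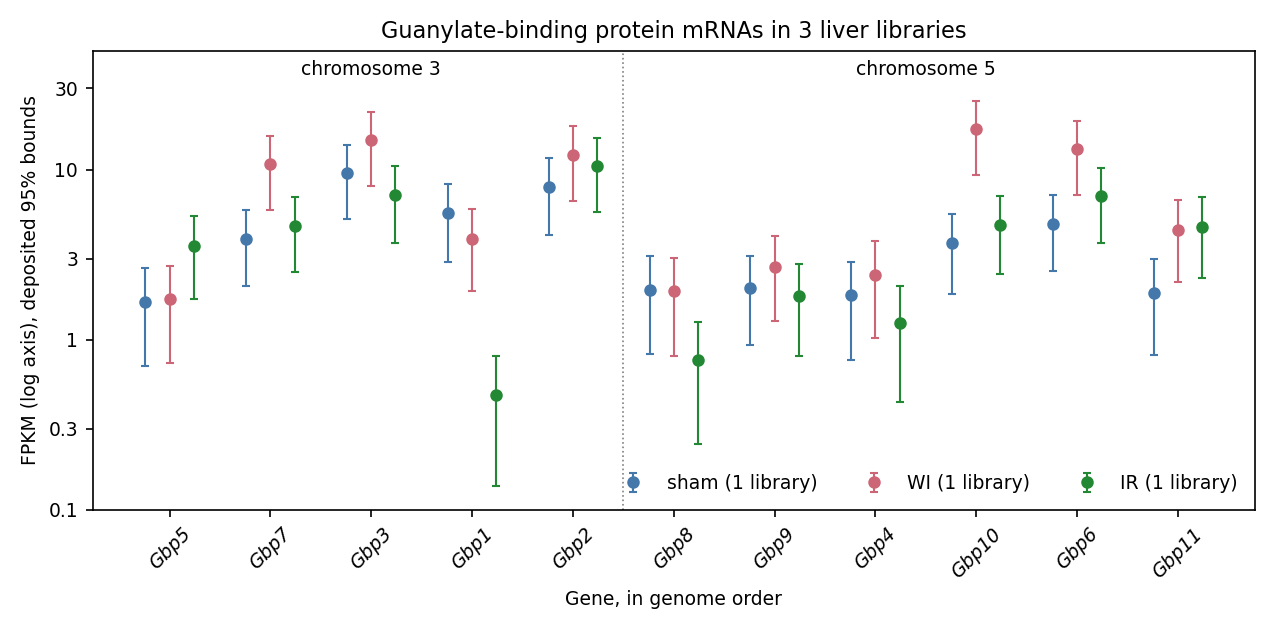
FPKM (log axis) of the 10 members and Gbp1 in the sham (blue), WI (red) and IR (green) samples, 1 library each, with the deposited 95% bounds as bars and genes in genome order. Gbp10 in WI liver, at 17.4, lies above the bounds of both other samples, and Gbp1 in IR liver, at 0.470, lies below them.

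From WI to IR most of the family was lower again. Of the 10 members, 2 (Gbp10 and Gbp7) were at least 2-fold lower in IR than in WI and 0 were higher, where 1.43% of all genes were lower, 5.78% higher and 7.21% either. With a pseudocount of 0.1 in place of 1 the count was 4, all lower, where 11.5% of all genes passed either way. With the samples scaled to equal totals of FPKM the count was 5, all lower, where 10.6% of all genes passed either way. The median difference was -0.67 (log2), beside 0.03 over all genes. Gbp10 was the 1 member with bounds apart, and it was lower. Of all genes 0.398% were apart and lower, 3.22% apart and higher and 3.61% either. The WI sample enters both this comparison and that with sham, so a high value in that library alone would give both differences. Between IR and sham 0 of the 10 members passed 2-fold, where 5.35% of all genes were higher, 2.15% lower and 7.5% either. With a pseudocount of 0.1 the count was 3, with Gbp5 and Gbp11 higher and Gbp8 lower, where 13.2% of all genes passed. The bounds of 0 members were apart, where 2.7% of all genes were apart and higher, 1.12% apart and lower and 3.82% either. The median difference was 0.25 (log2) beside 0.05 over all genes. With the samples scaled to equal totals of FPKM, the median of all genes from sham to IR moved to -0.42, and that of the members moved to -0.22, which turned its sign. Relative to all genes it was then 0.20, beside 0.19 on the deposited scale.

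The order of the members differed between samples. In the sham sample FPKM ran from 9.58 (Gbp3) to 1.67 (Gbp5), in WI liver from 17.4 (Gbp10) to 1.73 (Gbp5), and in IR liver from 10.5 (Gbp2) to 0.755 (Gbp8). The rank of Gbp10 was 5 in sham liver, 1 in WI liver and 4 in IR liver. In each sample all 9 pairs of neighbours in this order had overlapping bounds, so the order of adjacent members is not settled. Of the 10 members 7 had their highest level in WI liver, 2 in IR liver and 1 in sham liver, and 0 had their lowest level in WI liver. The same counts were not made over all genes, so these describe the members only. Small differences placed Gbp11, at 4.60 in IR and 4.38 in WI liver, and Gbp8, at 1.96 in sham and 1.92 in WI liver.

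Gbp1 went another way. It is the immediate neighbour of Gbp2 on chromosome 3 and shares 1.84% of its words with it. Its FPKM was 5.53 in sham liver (95% bounds 2.86 to 8.20), 3.90 in WI liver (1.92 to 5.88) and 0.470 in IR liver (0.137 to 0.804). The IR sample lay below both others without overlap, by -1.74 (log2) against WI and -2.15 against sham, and the sham and WI samples overlapped. On the log2(FPKM + 1) scale no other family gene passed the 2-fold threshold between IR and sham, while with a pseudocount of 0.1 Gbp5, Gbp8 and Gbp11 did too.

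Genes next to the clusters were picked as the 2 nearest on each side that passed the filter. This was done after the values of the members had been seen. From sham to WI none of the 8 was 2-fold higher. At a share of 0.751% over all genes this says little about them. Their differences ran from -0.74 (Lrrc8c) to 0.50 (Ccbl2). Ccbl2, 63072 bases beyond Gbp2, was highest in WI liver, with an FPKM of 72.9, 103 and 66.6 in sham, WI and IR liver and overlapping bounds. Abcg3, 31436 bases before Gbp8, had an FPKM of 1.79, 1.16 and 0.397, and its sham and IR bounds were apart.

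The signalling genes above the GBPs were followed next. Ifng itself, which encodes interferon-gamma, was near 0 in all 3 samples, with an FPKM of 0.0362 in the sham, 0.0987 in the WI and 0.135 in IR liver and a lower bound of 0 in each. The receptor chain Ifngr1 had an FPKM of 14.5, 9.73 and 8.09 in sham, WI and IR liver, and Ifngr2 had 9.81, 8.36 and 12.2. Neither chain was higher in WI liver than in sham liver, and all bounds overlapped. Irf1, which acts on ISRE words, had an FPKM of 8.06, 17.0 and 15.3. It was higher in WI liver by 0.99 (log2), just under the threshold, and stayed near that level in IR liver. Its bounds overlapped in every pair of samples.

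Among 13 of 15 listed genes of interferon-gamma signalling that passed the filter, the median difference was -0.03 (log2) from sham to WI and 0.30 from WI to IR. From WI to IR 3 were at least 2-fold higher, where 5.78% of all genes were. These 3, Socs3, Socs1 and Ptpn2, were feedback inhibitors of this route. Socs1 passed the filter only through the IR sample, so the count favours it. Socs3, which blocks cytokine receptors, had an FPKM of 3.14, 5.38 and 109 in sham, WI and IR liver, and Socs1, which inhibits JAK kinases, had 0.424, 0.400 and 4.49. Ptpn2, a phosphatase that acts on JAK1, had 6.78, 5.25 and 36.2. For each of them the bounds of the IR sample lay above those of both other samples. The GBP median was lower in IR than in WI, and a link to these genes was not tested.

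Many of the other interferon-inducible GTPases were also highest in WI liver. Of 16 measured genes on this list 9 were at least 2-fold higher from sham to WI and 0 were 2-fold lower. Of all genes 0.751% were 2-fold higher and 1.1% lower. On the list 6 were lower by any amount, and the median was 1.10 (log2) beside 0.58 for the GBPs. From WI to IR 8 of the list were 2-fold lower and 1 higher, with a median of -0.86. Of all genes 1.43% were 2-fold lower and 5.78% higher. Tgtp1, an immunity-related GTPase, had an FPKM of 9.79 in sham liver (95% bounds 5.22 to 14.4), 46.7 in WI liver (24.0 to 69.3) and 6.08 in IR liver (3.13 to 9.02). Igtp and Iigp1, which attack parasite vacuoles together with GBPs, had 21.5, 71.2 and 25.1, and 95.3, 318 and 132. Gvin1, a very large interferon-inducible GTPase, had 1.80, 8.17 and 1.87. Its locus in the files is also that of its relative Gm4070, which ran the other way at 5.18, 2.17 and 5.95, so reads could be divided between them. The pair summed to 6.98, 10.3 and 7.81, a ratio of WI to sham of 1.48 beside 4.54 for Gvin1 alone. The WI sample was the highest for Tgtp1, Igtp, Iigp1 and Gvin1, with bounds apart from sham for Tgtp1, Igtp and Gvin1.

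Of 20 measured interferon-gamma targets outside the GTPases, 18 were higher in WI than in sham by any amount, with a median of 0.32 (log2). Cxcl10, a chemokine for T cells, had an FPKM of 3.76, 10.4 and 22.6 in sham, WI and IR liver, so it was highest in IR liver, and it shares its locus in the files with Cxcl11. Cd74, the invariant chain of MHC class II, had 181, 135 and 63.4. Cxcl9, named here after its values were seen because it depends on interferon-gamma, had 11.4, 11.7 and 11.0, with no difference that its bounds could resolve. Of 22 measured targets of type I interferon 0 were 2-fold higher or lower from sham to WI, where 1.85% of all genes were. Such a count says little about them. Their median was -0.08, and some of them are shared with interferon-gamma. From WI to IR, Rsad2, an antiviral enzyme, had an FPKM of 1.45 and 9.46, and Oasl1 had 4.27 and 11.3. Against sham, 4 of the 22 were 2-fold higher in IR liver, where 5.35% of all genes were. They included Isg15 at 13.8 and 37.0 and Ifit1 at 5.01 and 12.9. Over the 22 the median from sham to IR was 0.02 (log2), beside 0.05 over all genes. By any amount 12 were higher and 10 lower, and 0 had bounds apart. Irf7, at 58.8 in sham and 29.7 in IR liver, was among the lower ones. From WI to IR the median of the 22 was 0.12, beside 0.03 over all genes.

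**Figure D4:**
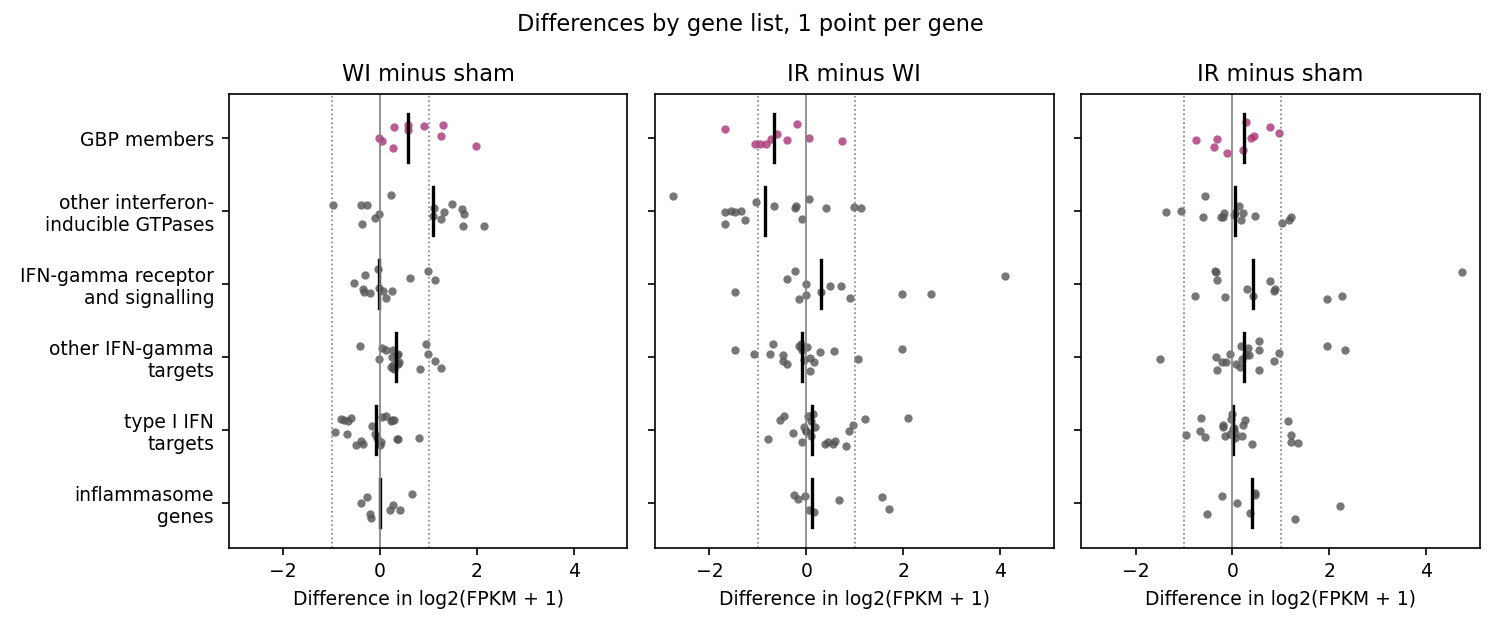
Differences in log2(FPKM + 1) for WI minus sham, IR minus WI and IR minus sham, with 1 point per gene that passed the filter, a black bar at the median of each list and dotted lines at 2-fold. The GBP members have medians of 0.58, -0.67 and 0.25, and the other interferon-inducible GTPases have 1.10, -0.86 and 0.04.

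Of 23 partners and lipid-modifying enzymes of GBPs 0 passed 2-fold from sham to WI, near the 1.85% of all genes that did, and the median was 0.06 (log2). From WI to IR 2 of them were 2-fold higher, where 5.78% of all genes were. Pim1, a kinase that phosphorylates a GBP and holds it inactive, had an FPKM of 5.23, 4.48 and 27.5 in sham, WI and IR liver, with the IR bounds above both others. Sqstm1, an autophagy receptor, had 110, 122 and 535. Gabarapl1, an autophagy protein of the group that places GBPs on vacuoles, had 160, 194 and 276. Cybb, the catalytic subunit of the phagocyte NADPH oxidase, had 12.7, 6.00 and 4.26, so it was lower in WI liver where Gbp7 was highest.

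Of 8 measured inflammasome genes 0 passed 2-fold from sham to WI, which at a share of 1.85% over all genes says little about them. From WI to IR 2 were at least 2-fold higher, where 5.78% of all genes were. Casp4, which encodes the caspase that senses bacterial lipopolysaccharide released with the help of GBPs, had an FPKM of 1.92, 1.21 and 6.20, and Il1b had 4.24, 7.29 and 23.4. For both, the IR bounds lay above those of WI. Nlrp3, the sensor linked to Gbp5, had 0.532, 0.322 and 1.12 with overlapping bounds, and Casp1 had 3.38, 2.61 and 2.02. The atlastins Atl2 and Atl3, GTPases of the endoplasmic reticulum related in structure to GBPs, had 59.2, 35.1 and 32.5, and 20.7, 23.6 and 10.7. Neither was 2-fold higher in WI liver.

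The 10 genes outside the family nearest to Gbp10 in their pair of differences (WI minus sham, IR minus WI) were sought among 10781 genes over the 3 samples. They were, from the nearest, Gvin1, Igtp, 4930470H14Rik, Gm4841, Tgtp2, Iigp1, Mid1ip1, Elovl6, Fasn and Irgm2. The distances ran from 0.26 to 0.66 on the log2 scale, and 5 of the 10 were on the list of interferon-inducible GTPases. Tgtp2 shares its locus in the files with Ifi47, and Gvin1 with Gm4070, whose differences were -0.97 from sham to WI and 1.13 from WI to IR, so the places of both in this order are uncertain. Fasn and Elovl6, enzymes of fatty acid synthesis, had an FPKM of 24.3, 74.3 and 31.9, and 12.7, 35.3 and 12.7, in sham, WI and IR liver. Across all genes 26 of 10792 (0.241%) were at least 2-fold higher in WI than in both other samples, among them the members Gbp10 and Gbp7.

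Bulk liver mRNA does not tell a change per cell from a change in the number of cells, and markers of other cell types moved between the samples. All 11 measured markers of Kupffer cells and macrophages were lower in WI than in sham, and their summed FPKM was 873, 501 and 363 in sham, WI and IR liver. Clec4f, a lectin of Kupffer cells, had 115, 65.3 and 32.7, and Vsig4, a complement receptor, had 67.8, 35.1 and 12.4. Of the 11, 9 were lower in IR than in WI, while the scavenger receptor Marco, at 12.6 and 25.3, and Cd68, at 12.3 and 18.5, were higher. Macrophage markers and the GBP sum thus moved in opposite directions from sham to WI. The 14 markers of T cells and NK cells, which make interferon-gamma, summed to 13.0, 12.6 and 6.16, and 4 of the 14 passed the filter. The defining marker Cd3e, named after its values were seen, was at 0.753, 0.700 and 0.155. Cd3e did not pass the filter, and its bounds overlapped in every pair of samples. The 9 markers of sinusoidal endothelium summed to 145, 108 and 114. Lyve1, a hyaluronan receptor, had 11.2, 2.73 and 33.4, and without it the sums were 133, 105 and 80.7, with 7 of the 9 lower in IR than in WI. Neutrophil markers summed to 26.0 in sham liver, 20.0 in WI liver and 471 in IR liver. Of the 8 measured, 7 passed the filter. All 7 were at least 2-fold higher in IR than in WI, where 5.78% of all genes were. Cxcr2, Mmp8 and Ngp passed the filter only through the IR sample, so this count favours markers high there. The part of these cell types in the GBP levels was not tested.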

How the data were processed

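Liver mRNA of 3 samples (sham, WI, IR; 1 library each) was analysed. The authors aligned read pairs to mm10 with TopHat2 2.0.9 and computed FPKM with Cuffdiff of Cufflinks 2.0.2 (versions per the submitters' processing notes), and deposited per sample FPKM, 95% bounds and a status for 23361 genes. The annotation, and how fragments that match several genes were divided, are not given in the sources used here. Starts in the files count from 0 and were raised by 1. The files hold no counts. Over all genes FPKM summed to 475754 in the sham, 487912 in the WI and 712423 in the IR sample. Below an FPKM of 0.2 the commonest ratio of IR to WI was 1.39, and the depth behind each value is unknown.

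With 1 library per condition no test was run. Differences are log2(FPKM + 1) over the 10792 genes that reached 1 FPKM in any sample. A gene was called at 2-fold or where bounds did not overlap. Batches could not be told apart from conditions. The members, lists and tests were chosen with earlier results of these data known. Genes named were the members, Gbp1, the interferon-gamma receptor, Irf1, up to 4 per list with the largest difference, and the 10 nearest to the member of widest range. A gene that this rule also named is not reported here. Of the cell type markers fewer are named, beside sums. Coding identity and shared words used GENCODE vM1 transcripts of NCBIM37, by symbol only, and start-site windows came from RefSeq (GRCm38.p6). Scripts were tested on simulated data. Python 3.11.15, numpy 2.4.6, pandas 2.3.3, Biopython 1.88 and matplotlib 3.10.9 were used.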

Additional observations from a re-analysis of the deposited data

How the results depend on the processing

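No paired analysis was possible because each condition has 1 library without replicate numbers, and leaving out replicates was not possible for the same reason. Between WI and sham, 3 members were at least 2-fold different as reported. Under every pseudocount, filter, scaling and fold tried one gene at a time this count was 3 or 4. It was 4 with a pseudocount of 0.1, where 3.54% of all genes passed, and 4 at 1.5-fold, where 7.41% did. When near copies were summed it was 2, out of 9 groups for Gbp6 and Gbp10 alone and 5 groups at 90% coding identity. With a pseudocount of 0.1 the count was 4 for IR against WI (all lower; 2 as reported) and 3 for IR against sham (2 higher, 1 lower; 0 as reported), where 11.5% and 13.2% of all genes passed, and the median from WI to IR was -0.90. At 1.5-fold these counts were 7 and 3, where 19.8% and 23.8% of all genes passed. With FPKM scaled to equal totals they were 5 and 1, all lower, where 10.6% and 12.6% of all genes passed. The medians of the members were then -0.97 and -0.22, while the median of all genes moved to -0.41 and -0.42. With a filter of 5 FPKM in any sample 5 members were left, with medians of 1.26 from sham to WI and -0.96 from WI to IR. Gbp7 and Gbp10 passed that filter only through the WI sample, so it favours members high there and these medians support nothing. Summing members with at least 90% coding identity, chosen after seeing the data, left 5 groups and a median of -0.96 from WI to IR. Summing Gbp6 and Gbp10 alone, also chosen afterwards, kept each count within 1.5 times the reported one. The planned grouping by protein identity was not run. The 2-fold calls from WI to IR and from sham to IR thus depended on these settings; the cause was not tested. Upper bounds of the members lay at least 46.3% above the FPKM, which limits what 1 library can resolve.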
